A study of Mus musculus with 24 samples.

Results

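The genes of the SLC25 family, the mitochondrial carriers, were followed in kidney cortex of old mice on a low or a normal protein diet, with or without the hormone FGF21. All rows of the deposited expression table whose mouse gene symbol begins with Slc25a were taken, which gave 42 genes of the 16921 in the table. The study compared 4 groups of 6 libraries each, all from male C57BL6/J mice aged 22 months that had eaten their diet from 3 months of age. KO_LP mice lacked FGF21 (genotype FGF21 KO) and ate the low protein diet with 5% casein. KO_NP mice lacked FGF21 and ate the normal protein diet with 20% casein. WT_LP and WT_NP mice were wild type and ate the 5% and the 20% casein diet. The labels do not say how the KO allele was made, and the targeted gene was not analysed here, so the genotype labels were not checked on it.

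SLC25 proteins sit in the inner mitochondrial membrane, where each moves a small set of solutes between the cytosol and the matrix, often by exchange. The family carries ADP, ATP and phosphate for oxidative phosphorylation, citrate, malate and oxoglutarate for the exchange of carbon, and amino acids, acylcarnitines, iron and cofactors. A few members sit elsewhere, such as Slc25a17 in peroxisomes and Slc25a46 in the outer mitochondrial membrane. The proximal tubule of the kidney cortex is rich in mitochondria, and FGF21 is a hormone that is released when dietary protein is low.

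The main result was small. Within KO mice, 3 carriers fell on LP relative to NP, among them Slc25a48, which carries choline into mitochondria, and Slc25a39, the mitochondrial glutathione carrier. No carrier rose past the threshold in KO mice, and no carrier passed it for the diet in WT mice. None passed it for the difference between the diet effects in KO and in WT mice, so the effects were not shown to differ. All 3 calls were lost in some of the alternative fits given below. Calls were made with edgeR's quasi-likelihood test over 15165 genes at a Benjamini-Hochberg adjusted p under 0.05. The 3 calls were 7.5% of the 40 carriers tested, against 7.17% of all genes tested in that comparison (3.58% lower and 3.59% higher), so the share called in the family was near that of all genes.

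The libraries were made with the Lexogen QuantSeq method, which reads a tag near the 3′ end of a transcript, so that levels between genes were compared without dividing by length. Library totals ran from 8.47 to 21.1 M counts (median 14.96 M), and levels are given in CPM, counts scaled to a library of a fixed size with edgeR's TMM factors. No 2 libraries of a group were alike within counting noise: the chi-square statistic of a pair, divided by its degrees of freedom, was 5.98 at the least and 69.5 at the most. The biological coefficient of variation was 19.6%. The replicate numbers used here are only names. The index numbers in the labels run group by group, so a batch that followed the groups and the groups themselves cannot be told apart. All 15 listed markers of the early proximal tubule (segments S1 and S2) had rows in the table. Because whole cortex was homogenised, fewer cells of a type and less RNA per cell cannot be told apart.

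Of the 42 carriers, 40 passed the filter on low counts. Slc25a30, a carrier first described in kidney, had a mean count of 4.46 per library (range 1 to 10), and Slc25a43, whose substrate is not assigned here, had a mean count of 4.75 (range 0 to 10). Both were left out of the tests. GENCODE M21 lists 47 genes with Slc25a symbols, and Slc25a2, Slc25a18, Slc25a31, Slc25a41 and Slc25a54 were not analysed here.

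Among the tested carriers the mean level ran from 0.941 CPM for Slc25a47 to 890 CPM for Slc25a3, with a median of 37.5 CPM against 12.9 CPM over all genes tested. Slc25a3, the phosphate carrier that supplies the ATP synthase, was the most abundant and averaged 807 ± 142 CPM in KO_LP, 953 ± 116 in KO_NP, 907 ± 98.3 in WT_LP and 895 ± 134 in WT_NP (SD, n = 6 each). The next in order were Slc25a39 at 580 CPM, the ADP/ATP carriers Slc25a4 at 385 CPM and Slc25a5 at 342 CPM, and the NAD carrier Slc25a51 at 278 CPM. Slc25a4 and Slc25a5 stood in that order by less than the spread of Slc25a5, whose SD in KO_LP was 121 CPM. The coefficient of variation among libraries of a group, averaged over the 4 groups, had a median of 15.2% over the carriers. It was lowest for Slc25a4 (9.28%) and highest for Slc25a25 (47.9%), a calcium-regulated carrier of ATP-Mg and phosphate.

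Summed over the 42 carriers, the level was 3794 ± 554 CPM in KO_LP (range 3006 to 4530), 4304 ± 246 CPM in KO_NP, 4013 ± 393 CPM in WT_LP and 4050 ± 386 CPM in WT_NP (SD, n = 6 each). As a share of all counts, without the edgeR scaling, the carriers made up 0.402% ± 0.0342 in KO_LP, 0.404% ± 0.0127 in KO_NP, 0.401% ± 0.0137 in WT_LP and 0.401% ± 0.0151 in WT_NP. The KO_LP mean was the lowest of the 4 on the scaled values and not on the plain share, where all 4 means lay within the SD of each group. Of the counts outside the mitochondrial genome, the carriers made up 0.523% ± 0.0521 in KO_LP, 0.562% ± 0.0250 in KO_NP, 0.541% ± 0.0225 in WT_LP and 0.538% ± 0.0327 in WT_NP, and KO_LP was the lowest there too. The sums depend on the scaling and were not tested. Transcripts of the mitochondrial genome took 18.5% to 26.3% of counts in KO_LP, 26.4% to 30.5% in KO_NP, 24.2% to 27.2% in WT_LP and 21.8% to 27.2% in WT_NP.

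Slc25a48 lies on chromosome 13 from base 56438355 to 56474239 on the + strand (GRCm38, GENCODE M21). Its level ran from 22.6 to 33.4 CPM in KO_LP (median 27.4), from 42.3 to 48.3 in KO_NP (median 45.3), from 19.3 to 35.2 in WT_LP (median 29.5) and from 23.97 to 47.01 in WT_NP (median 34.7). Every KO_LP library was below every KO_NP library, while both WT groups overlapped each other and KO_LP. In KO mice Slc25a48 fell on LP by 0.70 on the log2 scale (SE 0.142, 95% interval -0.99 to -0.41, edgeR adjusted p = 0.0129). In WT mice the LP minus NP difference was -0.26 (SE 0.141, edgeR adjusted p = 1), and the difference between the diet effects in KO and in WT, at -0.44 (SE 0.199, edgeR adjusted p = 0.285), did not pass the threshold. The KO_NP group, at 45.3 ± 2.16 CPM, was also the highest of the 4, and its difference from WT_NP at 34.9 ± 8.33 CPM was 0.38 (SE 0.14, edgeR adjusted p = 0.239). Leaving out any single library kept the diet call in KO, with edgeR adjusted p from 0.00711 to 0.0431. Without WT_NP 1, KO_LP 4 and KO_LP 6 together, libraries picked because they stood apart in earlier results of these data, the difference was -0.60 with an edgeR adjusted p of 0.0546.

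Slc25a39 lies on chromosome 11 from 102402985 to 102407946 on the - strand. Its level ran from 376 to 618 CPM in KO_LP (median 469), from 599 to 677 in KO_NP (median 620), from 497 to 762 in WT_LP (median 599) and from 499 to 696 in WT_NP (median 623). One library, KO_LP 1 at 618 CPM, lay within the KO_NP range, and the other 5 KO_LP libraries lay below it. In KO mice Slc25a39 fell on LP by 0.39 on the log2 scale (SE 0.114, edgeR adjusted p = 0.0420). The WT difference was -0.04 (SE 0.114), and the 2 diet effects differed by -0.35 (SE 0.161, edgeR adjusted p = 0.289). The call in KO held in 14 of 24 fits that each left out a library, and the edgeR adjusted p reached 0.117 without KO_LP 4. Slc25a40, its close relative, was far less abundant: Slc25a39 made up 97.7% ± 0.659 of the pair in KO_LP, 98.4% ± 0.226 in KO_NP, 98.3% ± 0.415 in WT_LP and 98.6% ± 0.245 in WT_NP.

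**Figure D1:**
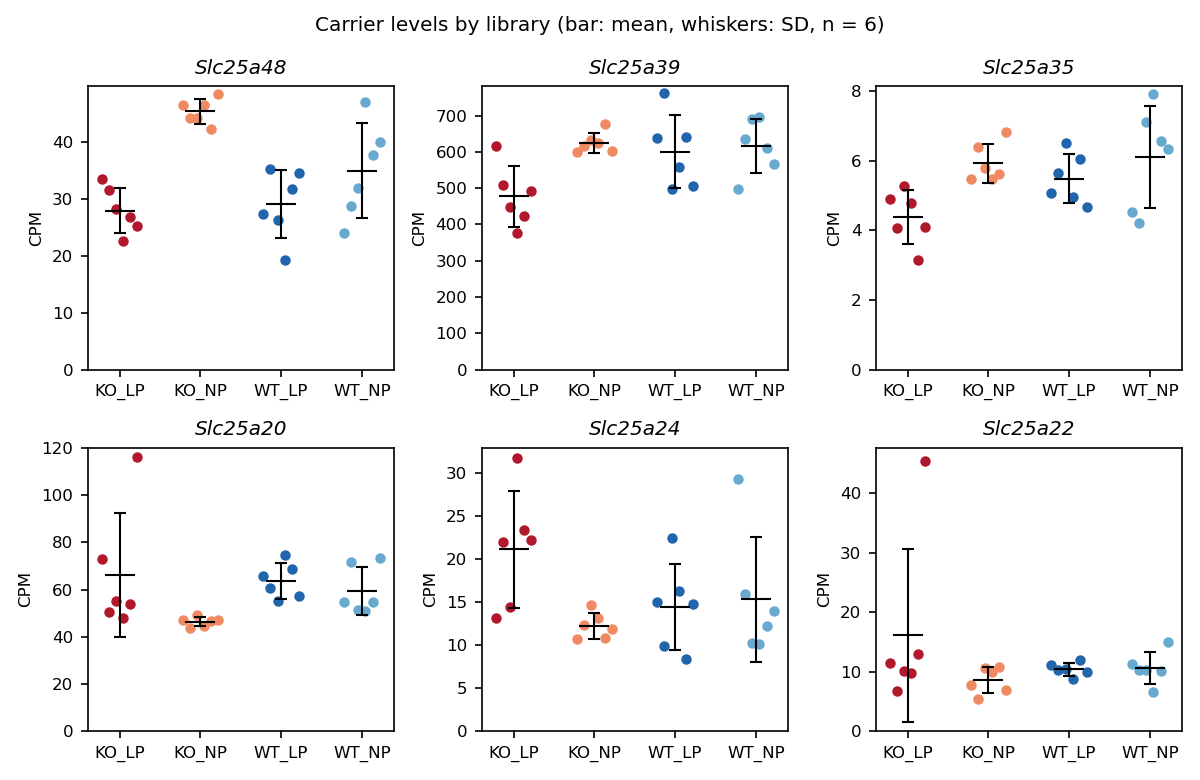
Level of 6 carriers in CPM (vertical axes, linear, from 0) in each library of KO_LP, KO_NP, WT_LP and WT_NP; points are libraries, horizontal bars the mean and whiskers the SD (n = 6). For Slc25a48 all KO_LP points lie below all KO_NP points, and for Slc25a20 and Slc25a22 a single KO_LP point, KO_LP 6 at 116 and 45.5 CPM, stands far above the others.

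For Slc25a48 and Slc25a39, the bases upstream of the transcription start that RefSeq gives (GRCm38.p6) are shown so that the promoters can be compared. The windows hold 250 bases and are written 5′ to 3′ on the strand of the gene, that of Slc25a48 from chr13:56438105-56438354 (+ strand, 56.4% G or C) and that of Slc25a39 from chr11:102407518-102407767 (- strand, 77.2% G or C). The Slc25a48 window ends at the base before the GENCODE M21 span of the gene, while the Slc25a39 window lies inside the GENCODE span, whose start is further upstream. Capitals mark the GC box, GGGCGG or its reverse complement.
Slc25a48: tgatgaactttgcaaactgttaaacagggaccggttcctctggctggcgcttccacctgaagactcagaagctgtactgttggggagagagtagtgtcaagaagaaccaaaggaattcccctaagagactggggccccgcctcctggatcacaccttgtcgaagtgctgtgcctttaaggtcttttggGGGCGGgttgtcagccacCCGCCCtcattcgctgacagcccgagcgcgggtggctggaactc
Slc25a39: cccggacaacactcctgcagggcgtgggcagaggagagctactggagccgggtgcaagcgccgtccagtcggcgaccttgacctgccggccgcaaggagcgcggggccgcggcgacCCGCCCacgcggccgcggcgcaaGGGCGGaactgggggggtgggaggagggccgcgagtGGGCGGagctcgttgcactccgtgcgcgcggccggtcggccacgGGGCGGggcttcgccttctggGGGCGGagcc
The Slc25a48 window held 2 GC boxes, beginning 62 and 44 bases upstream of the start, and the Slc25a39 window held 5, the nearest beginning 10 bases upstream. Among the 33 carriers with a window, 24 held a GC box in at least one window, against 35.4% of the 27025 genes with a window and 32.7% of 32851 windows. Over all windows the median was 52.4% G or C, and the genes were not matched to the carriers by base composition or gene type. The CCAAT box (CCAAT) was in 18 of the 33 carriers and in 37.5% of genes, and in neither window printed here. Slc25a20 was the only carrier with the ETS word CCGGAAGT (3.23% of genes), and Slc25a3 the only carrier with an NRF1 word (4.23% of genes). The E-box CACGTG was in 6 carriers (6.86% of genes) and the CRE word TGACGTCA in 2 (1.77% of genes), while no carrier held the ERR word TCAAGGTCA (0.422% of genes) or a PPAR word (0.0407% of genes). Words were searched on both strands, with any overlap between words counted for each. A match describes the letters only and is no binding site.

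Over the 40 carriers tested, the KO diet differences ran from -0.70 to 0.91 on the log2 scale with a median of -0.12, and 27 were below 0. With 1 surrogate variable in the fit, 11 of the 40 estimates changed sign and the median was 0.04. A surrogate variable is a term estimated from the data for variation beyond the group means. It can overlap with the groups, so it may also take up part of a diet difference. Without that term, the median over all genes tested was 0.03, and 6835 of 15165 were below 0. At an unadjusted p under 0.05 the edgeR test listed 17 carriers, and 4236 genes in all. For 3 carriers, Slc25a48, Slc25a35 and Slc25a38, the KO_LP and KO_NP libraries did not overlap, and all 3 were lower in KO_LP. Over all genes tested 3.71% did not overlap, 1.65% higher and 2.06% lower in KO_LP.

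**Figure D2:**
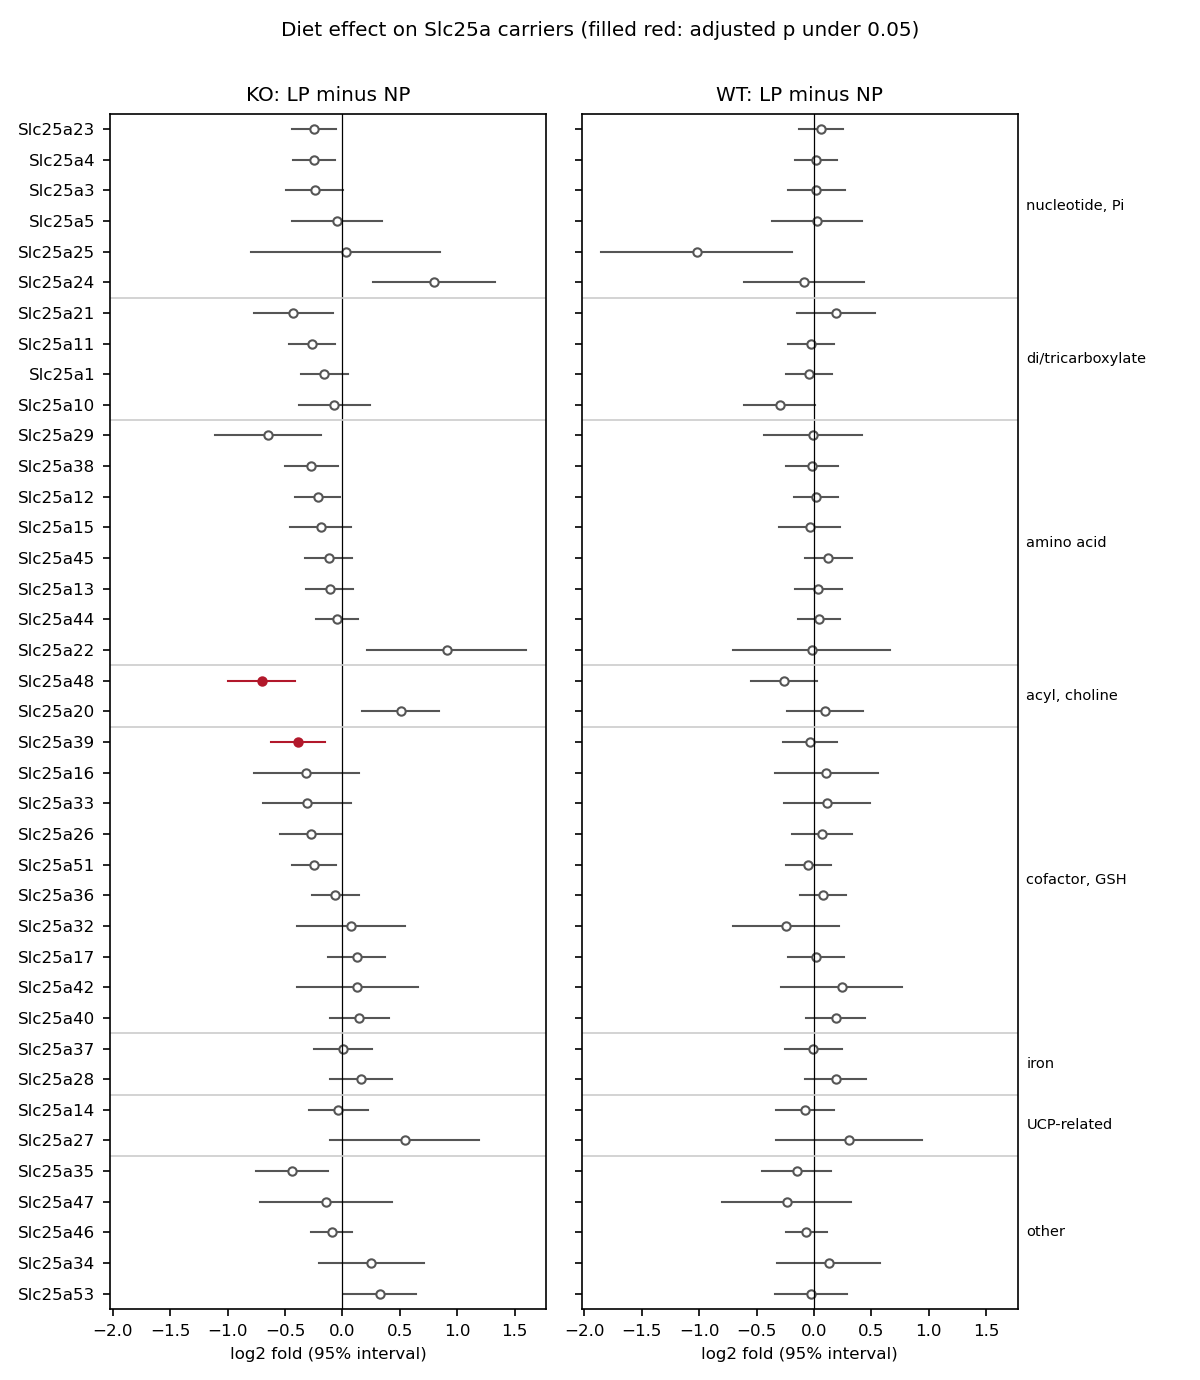
LP minus NP difference in KO mice (left) and WT mice (right) for tested carriers, as log2 fold with its 95% interval, ordered by role from top to bottom; filled red points passed an adjusted p of 0.05. The filled points are Slc25a48 and Slc25a39 in KO mice, and most points in WT mice lie near 0.

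Among carriers of adenine nucleotides and phosphate, 0 of 6 passed the test in KO mice, with a median of -0.14 (0.08 with 1 surrogate variable). Slc25a4, the ADP/ATP carrier of muscle and heart, ranged from 294 to 433 CPM in KO_LP (median 367) and from 387 to 484 CPM in KO_NP (median 422), which gave -0.24 (SE 0.0886, edgeR adjusted p = 0.0802). The 2 groups overlapped, and Slc25a4 ranged from 345 to 398 CPM in WT_LP and from 339 to 421 CPM in WT_NP. Slc25a5, the other ADP/ATP carrier, showed a difference of -0.05 (SE 0.191), and Slc25a4 made up 51.0% ± 8.66 of the pair in KO_LP, 53.9% ± 6.90 in KO_NP, 54.5% ± 5.93 in WT_LP and 54.4% ± 3.45 in WT_NP. The last 300 bases of Slc25a5 share 7.17% of their 50-base words with its pseudogene Slc25a5-ps. Here and below, such shares pool the last 300 bases of all protein-coding transcripts of a gene, so single transcripts may share more or less.

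Slc25a23, Slc25a24 and Slc25a25 carry ATP-Mg and phosphate under the control of calcium. Slc25a23 ranged from 45.5 to 65.5 CPM in KO_LP (median 52.1) and from 59.1 to 67.7 CPM in KO_NP (median 63.0), with a difference of -0.25 (SE 0.0932, edgeR adjusted p = 0.0883), and its last 300 bases share 10.3% of their 50-base words with Gm17168 on the opposite strand. Slc25a24 ranged from 13.1 to 31.8 CPM in KO_LP (median 22.1) and from 10.8 to 14.6 CPM in KO_NP (median 12.1), with a difference of 0.80 (SE 0.257, edgeR adjusted p = 0.0578). Neither passed the threshold and both pairs of groups overlapped, and Slc25a25 gave 0.03 (SE 0.398). As a share of the pair, Slc25a23 made up 71.8% ± 8.95 in KO_LP (58.9% to 83.3%), 83.9% ± 2.11 in KO_NP (80.1% to 86.3%), 81.6% ± 6.26 in WT_LP and 79.9% ± 9.23 in WT_NP. For the difference between the diet effects in KO and WT, Slc25a24 gave 0.88 (SE 0.361, edgeR adjusted p = 0.252) and Slc25a23 -0.31 (SE 0.131, edgeR adjusted p = 0.264). Slc25a24 was called by DESeq2 (0.77, adjusted p = 0.0277) and in an edgeR fit of the KO libraries alone (0.80, adjusted p = 0.0278). It was called in 7 of 33 alternatives, and without KO_LP 4 its KO diet difference was 0.64 (edgeR adjusted p = 0.173). In WT mice Slc25a24 ranged from 8.39 to 22.4 CPM in WT_LP and from 10.2 to 29.3 CPM in WT_NP, and Slc25a23 from 54.7 to 69.7 CPM in WT_LP and from 49.2 to 73.1 CPM in WT_NP. Slc25a24 was highest in KO_LP 4 at 31.8 CPM and in WT_NP 1 at 29.3 CPM, whose summed immune cell markers were 5221 and 12697 CPM, while KO_LP 5, with the highest immune sum of all at 15567 CPM, had 23.4 CPM. The part of immune cell RNA in these levels was not tested.

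All 4 carriers of di- and tricarboxylates had estimates below 0 in KO mice, with a median of -0.21. Slc25a1 and Slc25a10 were above 0 with 1 surrogate variable (0.01 and 0.17), and Slc25a10 also without KO_LP 4 (0.03). Of the 4, 0 passed the test. Slc25a11, the oxoglutarate carrier of the malate-aspartate shuttle, ranged from 106 to 155 CPM in KO_LP (median 125) and from 122 to 171 CPM in KO_NP (median 159), with a difference of -0.26 (SE 0.0973, edgeR adjusted p = 0.0855). Slc25a21, the oxoadipate carrier of lysine and tryptophan breakdown, ranged from 10.7 to 24.997 CPM in KO_LP (median 19.7) and from 21.8 to 30.6 CPM in KO_NP (median 25.1), with a difference of -0.43 (SE 0.167, edgeR adjusted p = 0.0999). Both overlapped between the groups. Slc25a11 ranged from 119 to 147 CPM in WT_LP and from 111 to 161 CPM in WT_NP, and Slc25a21 from 17.1 to 28.8 CPM in WT_LP and from 14.2 to 23.4 CPM in WT_NP. In WT mice Slc25a21 differed by 0.19 (SE 0.164), and its diet effects differed by -0.62 (SE 0.234, edgeR adjusted p = 0.233). Its last 300 bases share 18.6% of their 50-base words with Pax9 on the opposite strand, and whether the authors' counting used the strand is not given in the sources used here. Slc25a10, the dicarboxylate carrier and the most abundant of the 4, averaged 175 ± 51.5 CPM in KO_LP, 184 ± 15.8 in KO_NP, 134 ± 18.6 in WT_LP and 165 ± 31.2 in WT_NP (SD, n = 6 each). The citrate carrier Slc25a1 showed -0.16 (SE 0.0982, edgeR adjusted p = 0.300).

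Among 8 amino acid carriers the median KO diet difference was -0.16 (-0.0044 with 1 surrogate variable), 7 estimates were below 0, and 0 passed the test. Slc25a29, a carrier of basic amino acids, was scarce: it ranged from 1.03 to 1.96 CPM in KO_LP (median 1.31) and from 1.58 to 2.74 CPM in KO_NP (median 2.15), with a difference of -0.65 (SE 0.224, edgeR adjusted p = 0.0696). Slc25a38, which brings glycine in for heme synthesis, ranged from 13.97 to 16.1 CPM in KO_LP (median 15.3) and from 16.6 to 21.5 CPM in KO_NP (median 17.7), without overlap and with a difference of -0.27 (SE 0.111, edgeR adjusted p = 0.119). Neither passed the threshold, and in WT mice Slc25a29 ranged from 1.41 to 3.199 CPM in WT_LP and from 1.88 to 2.97 CPM in WT_NP, and Slc25a38 from 15.3 to 22.3 CPM in WT_LP and from 13.2 to 22.4 CPM in WT_NP. The aspartate-glutamate carriers of the malate-aspartate shuttle gave -0.21 (SE 0.0949, edgeR adjusted p = 0.142) for Slc25a12, at 64.3 to 80.7 CPM in KO_LP (median 74.4) and 66.8 to 95.01 CPM in KO_NP (median 89.6), and -0.11 (SE 0.100) for Slc25a13. Slc25a12 made up 39.3% ± 2.72 of that pair in KO_LP, 40.9% ± 4.33 in KO_NP, 38.1% ± 4.28 in WT_LP and 38.3% ± 1.53 in WT_NP, and the 4 means lay within the SD of KO_NP.

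The glutamate carrier Slc25a22 ranged from 6.70 to 45.5 CPM in KO_LP (median 10.8) and from 5.41 to 10.7 CPM in KO_NP (median 8.85), with a difference of 0.91 (SE 0.335, edgeR adjusted p = 0.0863). In WT mice it ranged from 8.74 to 11.9 CPM in WT_LP and from 6.51 to 14.99 CPM in WT_NP. The estimate in KO mice rested on KO_LP 6: without that library it was 0.25 with an edgeR adjusted p of 0.426. The most abundant amino acid carrier was Slc25a15, the ornithine carrier of the urea cycle, at 121 ± 25.8 CPM in KO_LP, 138 ± 14.5 in KO_NP, 141 ± 21.6 in WT_LP and 145 ± 21.4 in WT_NP (SD, n = 6 each). Slc25a44, which carries branched-chain amino acids in mouse brown fat, averaged 48.3 ± 6.17 CPM in KO_LP and 49.9 ± 4.76 CPM in KO_NP, a difference of -0.05 (95% interval -0.23 to 0.13), and Slc25a45, whose substrate is less well known, gave -0.12 (95% interval -0.33 to 0.08).

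Slc25a20, the carnitine-acylcarnitine carrier of fatty acid oxidation, was higher in every KO_LP library than the KO_NP mean and missed the threshold in the edgeR test. It ranged from 47.99 to 116 CPM in KO_LP (median 54.4), from 43.7 to 49.4 CPM in KO_NP (median 46.9), from 55.1 to 74.8 CPM in WT_LP (median 63.0) and from 51.1 to 73.4 CPM in WT_NP (median 54.8). The KO diet difference was 0.51 (SE 0.162, edgeR adjusted p = 0.0554), and 0.27 (edgeR adjusted p = 0.135) without KO_LP 6. It was called higher by DESeq2 (0.49, adjusted p = 0.0359), with a filter of at least 5 CPM in 6 libraries (0.52, edgeR adjusted p = 0.0404), and in the edgeR fits that left out KO_LP 2, KO_LP 3 or WT_NP 1 (adjusted p from 0.0437 to 0.0499). All KO_NP libraries lay below all WT_NP libraries and the difference was -0.36 (SE 0.162, edgeR adjusted p = 0.358). KO_LP 6 also had the highest summed level of the adipocyte markers, 443.5 CPM over the 5 of 8 listed with a row, with 100.8 CPM in the lowest KO_LP library and 60.2 to 157 CPM in KO_NP. Of the KO_LP libraries, KO_LP 6 also had the highest sum of thick ascending limb markers, at 3547 CPM (lowest library 1909 CPM). Its sum of late proximal tubule (S3) markers was the lowest, at 2559.8 CPM (highest library 4713 CPM). The part of RNA from adipocytes or from other cell types in the level of Slc25a20 was not tested.

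Carriers of cofactors, nucleotides and glutathione were the largest role group. In KO mice 2 of 11 were called lower on LP (Slc25a39 among them) and none higher, against 3.58% lower and 3.59% higher over all genes tested. Their median was -0.25. With 1 surrogate variable 0 were called and the median was 0.03. Slc25a51, the NAD carrier, ranged from 232 to 299.9 CPM in KO_LP (median 274) and from 277 to 335 CPM in KO_NP (median 321), with a difference of -0.25 (SE 0.0947, edgeR adjusted p = 0.0945). The groups overlapped, the range was 231 to 321 CPM in WT_LP and 228 to 299.8 CPM in WT_NP, and KO_NP relative to WT_NP gave 0.22 (SE 0.0947, edgeR adjusted p = 0.322). Slc25a26, the S-adenosylmethionine carrier, gave -0.27 (SE 0.130, edgeR adjusted p = 0.170), and 37.8% of the 50-base words in its last 300 bases also occur in Lrig1 on the opposite strand. Of the pyrimidine nucleotide carriers, Slc25a33 made up 7.06% ± 1.223 of the pair with Slc25a36 in KO_LP, 8.31% ± 0.790 in KO_NP, 9.22% ± 1.98 in WT_LP and 9.19% ± 1.87 in WT_NP. Slc25a16 gave -0.31 (SE 0.220) in KO mice and the coenzyme A carrier Slc25a42 0.13 (SE 0.255), with coefficients of variation among libraries of 25.7% and 29.0%. The peroxisomal Slc25a17 differed by 0.12 (SE 0.119) in KO mice, and the folate carrier Slc25a32 by 0.07 (SE 0.230).

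The mitoferrins, which bring iron into mitochondria, differed little by diet: Slc25a37 gave 0.01 (95% interval -0.24 to 0.26) and Slc25a28 0.16 (95% interval -0.11 to 0.43) in KO mice. In KO_NP relative to WT_NP, Slc25a37 gave 0.23 (SE 0.121, edgeR adjusted p = 0.444). Since 50% of the 50-base words in the pooled last 300 bases of Slc25a37 transcripts also occur in transcripts of Gm27223 and other Gm genes, its counts are uncertain. So are those of Slc25a40, which shares 41.6% with Gm5066. Slc25a14 and Slc25a27, relatives of the uncoupling proteins, gave -0.03 (SE 0.125) and 0.54 (SE 0.315, edgeR adjusted p = 0.262). Of the carriers with other or unassigned substrates, 0 of 5 passed the test, and the scarce Slc25a47 gave -0.14 (SE 0.278). Slc25a35 ranged from 3.13 to 5.27 CPM in KO_LP (median 4.43) and from 5.46 to 6.82 CPM in KO_NP (median 5.70), without overlap, and gave -0.44 (SE 0.152, edgeR adjusted p = 0.0696). It ranged from 4.67 to 6.51 CPM in WT_LP and from 4.20 to 7.90 CPM in WT_NP. Its relative Slc25a34 gave 0.25 (SE 0.221), and Slc25a46, which acts on mitochondrial shape from the outer membrane, gave -0.09 (SE 0.0869).

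In WT mice 0 of 40 carriers passed the edgeR test for LP against NP, where 0% of all genes passed, and 1 carrier and 580 genes had an unadjusted p under 0.05. DESeq2 also called 0 carriers, with 16 genes in all, and limma called 0 carriers and 0 genes. No carrier had WT_LP and WT_NP libraries without overlap, as 0.29% of all genes did (0.119% higher, 0.171% lower). The carrier with the smallest p was Slc25a25, which ranged from 16.8 to 34.8 CPM in WT_LP (median 30.9) and from 18.4 to 166 CPM in WT_NP (median 36.2), a difference of -1.02 (SE 0.401, edgeR adjusted p = 1). The value of 166 CPM belonged to WT_NP 2, and without that library the difference was -0.35. Next came Slc25a10 at -0.30 (SE 0.151), Slc25a48 at -0.26 (SE 0.141), Slc25a40 at 0.19 (SE 0.123) and Slc25a28 at 0.19 (SE 0.128), all with an edgeR adjusted p of 1. The median over the carriers was 0.02, with 19 of 40 estimates below 0, and over all genes it was -0.01.

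No carrier passed the edgeR test of the difference between the diet effects in KO and in WT, in which 0% of all genes passed. Thus no carrier's diet effect in KO mice was shown to differ from that in WT mice. At an unadjusted p under 0.05 there were 8 carriers and 2430 genes. DESeq2 called 0 carriers and 108 genes in all, and limma called 0 carriers and 0 genes. Among the carriers with the smallest p were Slc25a21, Slc25a24, Slc25a23 and Slc25a48, whose values stand above. The median over the carriers was -0.12, against 0.03 over all genes tested.

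On LP, KO mice were compared with WT mice in the same libraries that the diet comparisons used, so these values are not independent of them. None of the 40 carriers passed the edgeR test, against 2.93% of all genes tested, and 12 carriers and 3196 genes had an unadjusted p under 0.05. Of all genes 1.35% were called higher and 1.59% lower. No carrier lay without overlap between KO_LP and WT_LP, as 2.27% of all genes did (1.09% higher, 1.19% lower). With limma 0 carriers were called, and 437 genes in all with 1 added to each value before the log, or 463 with 8 added. Among the carriers with the smallest p were Slc25a29 at -0.77 (SE 0.219, edgeR adjusted p = 0.0535) and Slc25a39 at -0.33 (SE 0.114, edgeR adjusted p = 0.101). Slc25a29 ranged from 1.03 to 1.96 CPM in KO_LP and from 1.41 to 3.199 CPM in WT_LP, and Slc25a39 from 376 to 618 CPM in KO_LP and from 497 to 762 CPM in WT_LP, so both overlapped. Slc25a23 gave -0.24 (SE 0.0929, edgeR adjusted p = 0.138) and Slc25a10 0.39 (SE 0.151, edgeR adjusted p = 0.143). With DESeq2, which called 889 genes in all, 2 carriers were called lower, among them Slc25a29 (adjusted p = 0.0224).

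On NP, 0 of 40 carriers passed the edgeR test of KO against WT, against 0.574% of all genes tested (0.343% higher, 0.231% lower), and 4 carriers and 1915 genes had an unadjusted p under 0.05. DESeq2 called 0 carriers and 232 genes in all, and limma 0 carriers and 85 genes with 1 added before the log, or 89 with 8 added. Slc25a20 alone lay without overlap, lower in KO_NP, as 0.791% of all genes did (0.778% lay higher and 1.57% either way). The smallest p values belonged to Slc25a48 (0.38), Slc25a51 (0.22), Slc25a20 (-0.36), Slc25a21 (0.36, SE 0.165, edgeR adjusted p = 0.367) and Slc25a37 (0.23). The median over the carriers was 0.07 on NP and -0.06 on LP, against -0.02 and 0.02 over all genes tested.

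Lists of genes that work beside the carriers were counted in the KO diet comparison. These lists were chosen with earlier results of these data known, and each count reads against 3.58% lower and 3.59% higher over all genes. Branched-chain amino acid breakdown had 10 of 17 genes lower and none higher, with a median of -0.43; among them were Dbt (-0.70, SE 0.134, edgeR adjusted p = 0.00932), a subunit of the branched-chain ketoacid dehydrogenase, and its phosphatase Ppm1k (-0.57, SE 0.108, edgeR adjusted p = 0.00940). The ATP synthase list had 5 of 18 lower, none higher and a median of -0.31, with Atp5g1 at -0.45 and Atp5j2 at -0.38. Enzymes of citrate and dicarboxylate metabolism had 5 of 18 lower (Idh2 at -0.49) and the malate-aspartate shuttle enzymes 2 of 4 lower (Mdh1 at -0.53, Mdh2 at -0.31). Without WT_NP 1, KO_LP 4 and KO_LP 6 together, 1 gene of branched-chain amino acid breakdown and none of the other 3 lists was called, and their medians were -0.30, -0.24, -0.23 and -0.24. With 1 surrogate variable 0 genes of the 4 lists were called, and their medians were -0.16, -0.07, -0.12 and -0.06.

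Other channels and transporters of the mitochondrial membranes had 3 of 22 lower and none higher: the outer membrane channel Vdac1 (-0.40, edgeR adjusted p = 0.0255), the sideroflexin Sfxn5 (-0.41, edgeR adjusted p = 0.0368) and Letm1. None of the 22 was called with 1 surrogate variable (median -0.07) or without WT_NP 1, KO_LP 4 and KO_LP 6 together (median -0.13). The machinery that imports carriers through the outer membrane and inserts them into the inner membrane had 0 of 16 called with a median of -0.22. Its members with the smallest p were Timm22 (-0.27, edgeR adjusted p = 0.0756), the core of the carrier translocase, and the intermembrane chaperone Timm9 (-0.28, edgeR adjusted p = 0.102). The list labelled carnitine shuttle, which also holds the acyl-CoA dehydrogenases Acadm, Acadl and Acadvl, had 0 of 7 called with a median of 0.13. In it, Acadl gave 0.27 (SE 0.135) and Cpt2 0.25 (SE 0.171). Of SLC25 proteins with other symbols, the uncoupling protein Ucp2 rose to 63.2 ± 54.8 CPM in KO_LP, against 27.99 ± 7.96 CPM in KO_NP (1.17, SE 0.360, edgeR adjusted p = 0.0496), and was not called with 1 surrogate variable or without WT_NP 1, KO_LP 4 and KO_LP 6 together; Mtch2 gave -0.26 (SE 0.103, edgeR adjusted p = 0.108).

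**Figure D3:**
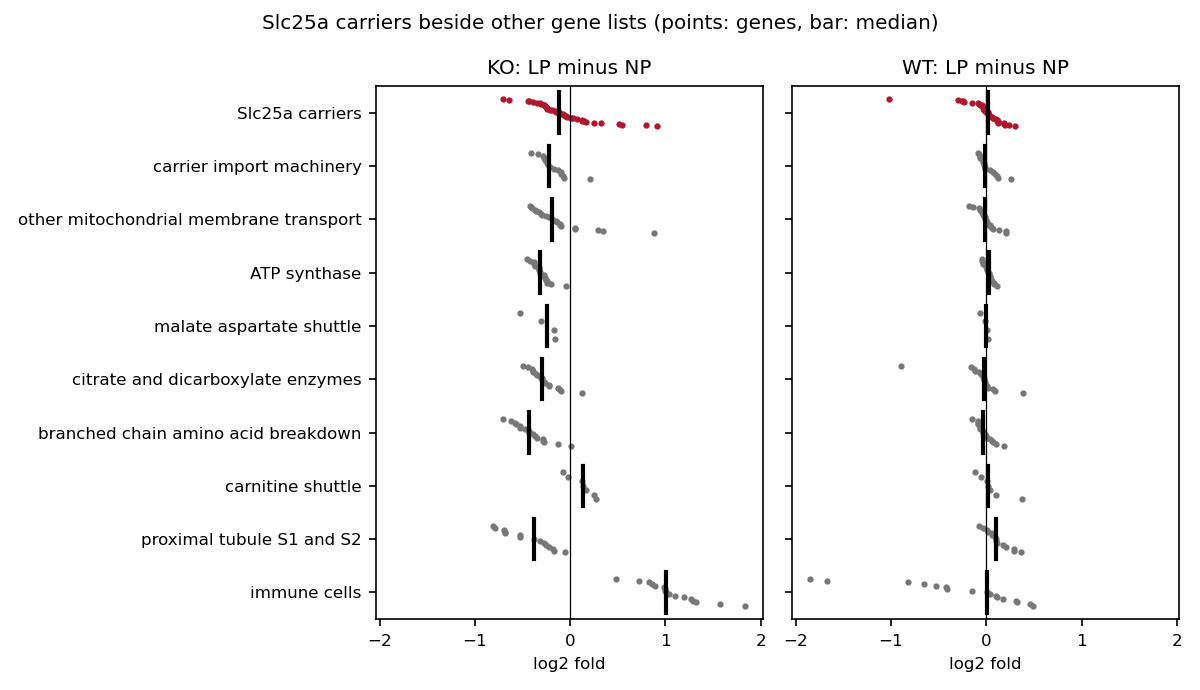
LP minus NP log2 fold in KO mice (left) and WT mice (right) for the Slc25a carriers (red) and for 9 gene lists (grey); points are genes, the black bar is the median. In KO mice the carriers' median of -0.12 lies to the right of the medians of the ATP synthase (-0.31) and branched-chain amino acid breakdown (-0.43), the immune markers lie far to the right (1.002), and in WT mice all medians lie between -0.03 and 0.10.

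Markers of cell types were counted in the same comparison. The summed level of the 15 early proximal tubule markers ran from 5111 to 7851 CPM in KO_LP, 7969.5 to 9928 CPM in KO_NP, 5777 to 10296 CPM in WT_LP and 5724 to 8708 CPM in WT_NP, so that KO_LP lay wholly below KO_NP, and 3 of 15 markers were called lower, among them the amino acid exchanger Slc7a8 (-0.52) and the phosphate transporter Slc34a1 (-0.68). The 18 immune cell markers, all with a row, summed to 1879.9 to 15567 CPM in KO_LP, 1812 to 3324 CPM in KO_NP, 1119 to 3121 CPM in WT_LP and 1293 to 12697 CPM in WT_NP, and KO_LP overlapped KO_NP. Of 17 immune markers tested 3 rose in KO mice on LP (Cd3e, Cd74 and C1qa), 0 fell, and the median was 1.002. With 1 surrogate variable, and without WT_NP 1, KO_LP 4 and KO_LP 6 together, no immune or early proximal tubule marker was called; the immune medians were 0.02 and 0.77 and the early proximal tubule medians -0.13 and -0.27. The 10 late proximal tubule (S3) markers ran from 2559.8 to 4713 CPM in KO_LP and from 3761 to 5917 CPM in KO_NP; the glucose transporter Slc5a1 (0.35) was called higher, none was called lower, 8 of 10 estimates were below 0 with a median of -0.33, and Slc7a13 gave -0.98 (edgeR adjusted p = 0.0744). The call of Slc5a1 was lost in both of these alternatives. The 10 markers of endothelium and stroma ran from 393 to 795 CPM in KO_LP and from 428 to 571 CPM in KO_NP, with 0 called (Pdgfrb at 0.42, Dcn at 0.52). Markers of the thick ascending limb (8 of 8 with a row, Egf at -0.62, Kcnj1 at -0.25) and of the distal tubule and collecting duct (12 of 12, Calb1 at -0.50, Trpv5 at 0.37) had 0 called by edgeR, with 6 of 8 estimates (median -0.17) and 10 of 12 estimates (median -0.19) below 0; with 1 surrogate variable the medians were -0.05 and 0.08. The adipocyte markers tested gave 0.71 for Fabp4 and 0.40 for Pparg, and the adrenal cortex markers (2 of 6 with a row) stayed at or below 2.13 CPM in sum, with Star at -0.13. No marker with a row was at 0 in every library of a group. The part of these markers in the carriers' differences was not tested.

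**Figure D4:**
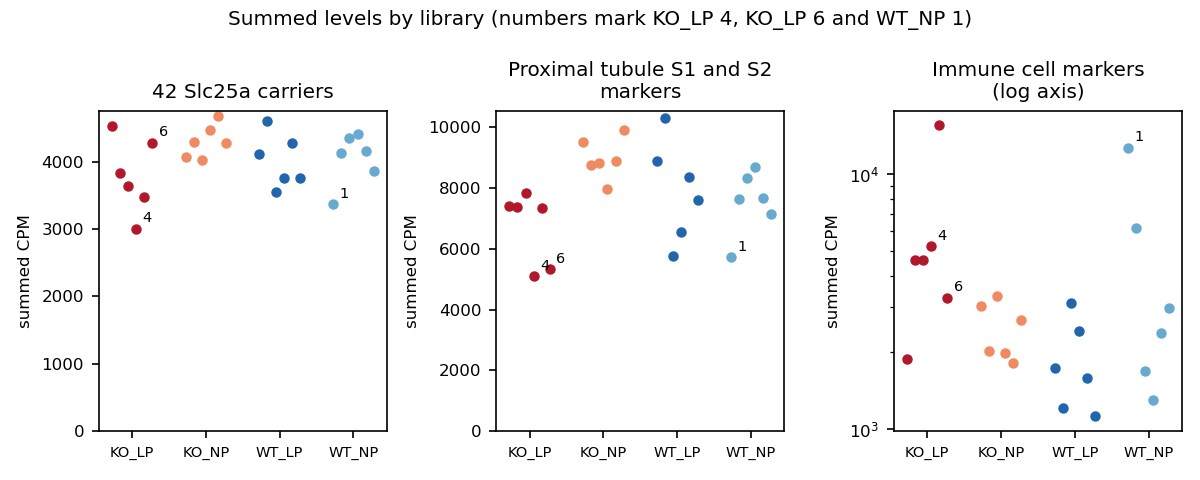
Summed CPM per library of the 42 Slc25a carriers, of the early proximal tubule markers (linear axes from 0) and of the immune cell markers (log axis) in KO_LP, KO_NP, WT_LP and WT_NP; numbers mark KO_LP 4, KO_LP 6 and WT_NP 1. KO_LP 4 at 3006 CPM and WT_NP 1 at 3371 CPM have the lowest carrier sums of their groups, and also the lowest sums of tubule markers.

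A few libraries lay at the edge of their group for many carriers at once. KO_LP 4 was the lowest library of KO_LP for 20 of the 40 carriers tested, and WT_NP 1 was the lowest of WT_NP for 20. KO_LP 1 was the highest of its group for 14 carriers and KO_LP 6 for 12. Leaving out KO_LP 1, the smallest library, raised the number of carriers called for the diet in KO mice to 8 (1 higher, 7 lower). Leaving out KO_LP 4 reduced it to 1, Slc25a48, as did leaving out KO_LP 5, KO_LP 6 or any of KO_NP 1, KO_NP 2, KO_NP 4, KO_NP 5 and KO_NP 6. Without WT_NP 1 there were 5. The calls over all genes in these fits with 1 library left out are not given here. Without WT_NP 1, KO_LP 4 and KO_LP 6 together there were 0 carriers and 36 genes in all, and with 1 surrogate variable in the fit 0 carriers and 4 genes.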

How the data were processed

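Raw counts per gene were deposited by the authors, beside a second table in a normalized unit, here called signal, whose values the authors had divided by a size factor for each library. Per the submitters' processing notes, DESeq2 1.22.2 and the build GRCm38 were used; no source used here names the aligner or the counter. The lowest mean count of any deposited gene was 3. Symbols came from the file for 14208 identifiers and from a gene name table for 2668 more, and 45 matched neither.

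Raw counts were tested with edgeR 4.0.16 in R 4.3.3 (filterByExpr on the 4 groups, TMM, robust quasi-likelihood fit of 4 group means over all 24 libraries), two-sided, with Benjamini-Hochberg adjustment over 15165 genes. Each SE is an approximation, the absolute log2 fold divided by the square root of the F statistic of its test. The 95% intervals use that SE and the degrees of freedom of the test. The 5 comparisons share libraries. The labels give each library its own code and say nothing more on separate animals, so p-values measure the spread between these libraries, which may be technical. Alternatives used DESeq2 1.42.0, limma 3.58.1, sva 3.50.0, other filters and left-out libraries. The members and lists were chosen with earlier results of these data known. Named are all called carriers, the 15 with the smallest adjusted p for the KO diet, 5 with the smallest p elsewhere, the most abundant and related carriers of each role, and the 2 list genes with the smallest p. Results of 2 genes that this rule names are not reported here. On simulated counts of 15025 genes for LP against NP in KO, 59% of genes changed 1.5-fold and 81% of those changed 2-fold were called, with 5 unchanged genes called. Changes were simulated only in genes above a floor on the mean count. Noise was drawn for each gene alone, without shifts shared by many genes of a library, so these shares may not hold for the real libraries. Figures and sequences used Python 3.11.15.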

Additional observations from a re-analysis of the deposited data

Results flagged for a closer look

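For each of the 40 tested carriers and each of the 4 groups, 160 sets of 6 values in all, the highest or lowest library was compared with the other 5. In 11 sets that library stood apart by Dixon's 95% criterion, and chance alone would give about 8. Of these 3 belonged to KO_LP 6: Slc25a22 at 45.5 CPM (others 6.70 to 12.9), Slc25a20 at 116 CPM (others 47.99 to 73.0) and Slc25a34 at 79.6 CPM (others 21.2 to 39.7). WT_NP 2 had Slc25a25 at 166 CPM (others 18.4 to 65.2), and WT_NP 1 had Slc25a24 at 29.3 CPM (others 10.2 to 15.95). In WT_LP 3, Slc25a10 was low at 99.3 CPM (others 131 to 150) and Slc25a34 low at 35.9 CPM (others 43.0 to 44.97). In WT_LP 2, Slc25a4 was low at 345 CPM (others 383 to 398), and in WT_LP 5, Slc25a17 was high at 106 CPM (others 79.0 to 88.3). KO_NP 3 had Slc25a32 at 3.99 CPM (others 2.06 to 2.69) and KO_NP 4 had Slc25a47 at 1.502 CPM (others 0.902 to 1.06), from 51 and 19 counts.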

How the results depend on the processing

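The number of carriers called for LP against NP in KO mice was 3 in the edgeR test (1087 genes in all). It was 5 with a filter of at least 5 CPM in 6 libraries (1155 genes in all) and 9 with DESeq2 (3 higher and 6 lower, 1855 genes in all). It was 0 with 1 surrogate variable (4 genes in all) and 0 without WT_NP 1, KO_LP 4 and KO_LP 6 together (36 genes in all). It ran from 1 to 8 when each library was left out in turn. For KO against WT on LP, the number was 0 in the edgeR test (445 genes in all), 2 with DESeq2 (889 genes in all) and 1 with 1 surrogate variable (290 genes in all). It ran from 0 to 3 with each library left out. The other 3 comparisons gave 0 carriers under all 33 alternatives run. Over all genes DESeq2 called 16 for LP against NP in WT mice, 108 for the difference between the diet effects and 232 for KO against WT on NP. Slc25a48 was called for the KO diet in 31 of 33 alternatives and Slc25a39 in 21; with 1 surrogate variable their differences were -0.45 and -0.13 on the log2 scale (edgeR adjusted p = 0.181 and 0.480). With each library left out, Slc25a39 ran from -0.48 to -0.33. The carriers' median in the KO diet comparison was 0.04 with 1 surrogate variable, against -0.12 in the edgeR test. Of 35 single values followed through the alternatives (the 15 carriers called or with the smallest p in the KO diet comparison and 5 in each of the other 4), none changed direction, and a call was lost in 30 and gained in 30 of the refits. Over all 40 carriers tested (35 with the 5 CPM filter), 11 KO diet estimates changed sign with 1 surrogate variable, 4 without the 3 libraries together, at most 1 in each of the other 7 alternatives, and 0 to 6 with each library left out. DESeq2 size factors in place of TMM moved the median over all genes by less than 0.1. The causes were not tested. No paired analysis was possible because the labels give the groups no shared replicate numbers. Counts under 20 in some libraries, as for Slc25a27 and Slc25a47, limited what could be seen for the scarcest carriers.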

Other observations

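Slc25a16 made up 47.1% ± 3.85 of its pair with Slc25a42 in KO_LP, 55.1% ± 5.69 in KO_NP, 47.6% ± 5.76 in WT_LP and 50.2% ± 2.70 in WT_NP (SD, n = 6 each). Slc25a23 made up 50.6% ± 7.16 of its pair with Slc25a25 in KO_LP, 55.8% ± 10.4 in KO_NP, 69.1% ± 4.29 in WT_LP and 57.4% ± 19.2 in WT_NP. Slc25a28 made up 40.6% ± 6.08 of the mitoferrin pair in KO_LP, 37.8% ± 8.07 in KO_NP, 46.1% ± 4.38 in WT_LP and 42.4% ± 5.53 in WT_NP. These shares were not tested between groups.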
